A study of Mus musculus with 9 samples.

Results

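The complement genes described here are 9 of the 24444 gene symbols in the count table. They were taken by symbol: the C1q chains C1qa, C1qb and C1qc, the protease C1ra, the central components C4b and C3, the receptor C3ar1, and the regulators Serping1 and Cd55. All 9 were found, and all 9 had enough counts to be tested.

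Complement is a cascade of plasma and tissue proteins that tags cells and debris for uptake. C1q, built from the A, B and C chains, binds a target and switches on the proteases C1r and C1s, which cleave C4 and C2 and lead to the cleavage of C3. The C3a fragment acts on its receptor C3ar1, and C3b coats the target. The C1 inhibitor Serping1 blocks C1r and C1s, and Cd55 on the cell surface speeds the decay of the enzymes that cleave C3. In the brain, microglia and other macrophages are the main source of C1q, while astrocytes, fibroblasts and vessel cells can make C3, C4, C1r, C1s and the C1 inhibitor. In development, C1q and C3 mark synapses that microglia remove.

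The 9 libraries, 3 in each of 3 groups, hold counts of RNA from mouse brain. The MycT58A tumours and the EV tumours were grown in the cerebellum of CD1-nude hosts. The cells implanted there came from mice with Blbp-Cre, floxed exon 3 of Ctnnb1 (both alleles), floxed Trp53 (both alleles) and 1 conditional allele of Pik3caE545K, a mouse model of WNT medulloblastoma. The implanted cells carried either MycT58A, a form of Myc whose protein is degraded slowly, or the vector labelled EV. The GFP-positive regions of each tumour were cut out. The reference is normal cerebellum of CD1-nude mice, a strain that lacks a thymus, and its labels name no engineered allele and no implant. The Blbp promoter drives Cre in radial glia and neural progenitors, and a dissected tumour still holds host vessels and host macrophages. Ages are not used here, and the labels do not say whether the libraries of a group came from separate cultures of cells. P-values therefore measure the spread between these libraries, which may be partly technical.

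Total counts per library ran from 16631523 to 30410089. Levels are given as CPM, the counts of a gene scaled to a common library size with TMM factors. Myc had 918, 859 and 727 CPM in MycT58A tumours, 360, 19.9 and 762 CPM in EV tumours and 0.94, 1.59 and 32.0 CPM in cerebellum. By Myc, the library labelled EV replicate 3 lay inside the MycT58A range, so several results of MycT58A against EV tumours are also given without it. Most results of EV tumours against cerebellum are given with it only. EV replicate 2 stood apart in many of the complement genes, and many results are given without it as well. It was singled out from these same values, though each library was also left out in turn. All groups share 1 estimate of spread per gene. Leaving out EV replicate 2 therefore also moves p-values of MycT58A tumours against cerebellum. A growth label of the controls speaks of cortex, but 6 genes of cerebellar granule neurons summed to 44.4 to 85.8 CPM in MycT58A tumours, to 7.95 to 33.2 CPM in EV tumours and to 3713, 3940 and 2836 CPM in the controls.

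Counted over the 9, 0 rose and 2 fell in MycT58A against EV tumours, in a comparison in which 8.3% of all 15171 genes tested were called, 3.28% higher and 5.02% lower. The median log2 fold change of the 9 was -1.96, beside -0.04 over all genes, and it was -0.94 without EV replicate 2. In EV tumours against cerebellum 5 rose and 1 fell, where 57% of all genes were called, 30.7% higher and 26.3% lower, so a share of 6 in 9 is near the background. The median was 1.64, beside 0.14 over all genes, and it was 0.82 without EV replicate 2. In MycT58A tumours against cerebellum 1 rose and 1 fell, where 62.2% of all genes were called, 31.2% higher and 31% lower, and the median was -0.28, beside -0.02 over all genes. The comparisons with cerebellum share their controls, and each tumour group stands in 2 comparisons.

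The mean level of each C1q chain was highest in EV tumours. C1qa stood at 23.7, 9.44 and 19.99 CPM in MycT58A tumours, at 74.9, 137 and 30.4 CPM in EV tumours and at 27.4, 28.5 and 34.3 CPM in cerebellum. Every EV library lay above every MycT58A library, and the lowest of them, the library labelled EV replicate 3, lay among the controls. C1qb stood at 23.9, 10.8 and 18.5 CPM in MycT58A tumours, at 63.2, 111 and 25.6 CPM in EV tumours and at 17.3, 20.2 and 26.8 CPM in cerebellum. C1qc stood at 22.7, 10.1 and 18.2 CPM in MycT58A tumours, at 62.9, 108 and 25.1 CPM in EV tumours and at 12.6, 15.1 and 24.4 CPM in cerebellum. In all 3 chains MycT58A replicate 2 was the lowest tumour and EV replicate 2 the highest.

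The 3 chains are encoded side by side on the minus strand of chromosome 4 (mm10): C1qb at 136880129 to 136886187, C1qc at 136889804 to 136893065 and C1qa at 136895917 to 136898803, each with 3 exon blocks in GENCODE vM21. Because the chains moved together, the 250 bases before the RefSeq start site (GRCm38.p6, the assembly of mm10) are shown for C1qb (chr4:136886201-136886450) and C1qc (chr4:136892915-136893164), both on the minus strand and read 5′ to 3′. Of the 9 genes, 6 have a promoter in the RefSeq table used (C1qb, C1qc, C1ra, C3, C3ar1 and Cd55). Capitals mark matches to the core of the myeloid factor PU.1 (GAGGAA) or to a form of the NF-kB site, searched on both strands.
C1qb: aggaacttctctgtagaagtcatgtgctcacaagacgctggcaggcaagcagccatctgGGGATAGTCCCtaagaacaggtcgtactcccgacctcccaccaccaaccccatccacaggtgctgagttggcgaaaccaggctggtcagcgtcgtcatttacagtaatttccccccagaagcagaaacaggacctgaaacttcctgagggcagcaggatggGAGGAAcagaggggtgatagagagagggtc
C1qc: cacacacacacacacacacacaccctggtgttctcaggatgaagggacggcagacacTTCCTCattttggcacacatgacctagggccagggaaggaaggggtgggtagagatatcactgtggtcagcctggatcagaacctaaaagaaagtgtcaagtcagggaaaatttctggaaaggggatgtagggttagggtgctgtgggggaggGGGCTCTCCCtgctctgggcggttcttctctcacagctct
Each window holds a PU.1 core. In C1qb it lies 25 bases before the RefSeq start on the gene's strand, in C1qc 188 bases before it on the other strand. Each window also holds the NF-kB form, in C1qb as overlapping matches on both strands. The 2 annotations differ for C1qc, which in GENCODE starts at 136893065, inside its window. The later bases of that window, with the NF-kB match, thus lie within the GENCODE gene. Among 32851 RefSeq promoter windows of the same length, 23.3% hold the PU.1 core and 17.6% the NF-kB form. The joint PU.1-IRF element (which can overlap the PU.1 core), the interferon element ISRE, the STAT element GAS (TTCNNNGAA) and a C/EBP form (TTNNGCAA) were not found in these 2 windows. They occur in 2.3%, 2.98%, 7.02% and 9.56% of all windows. A match of letters is a description and not a site in use.

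**Figure D1:**
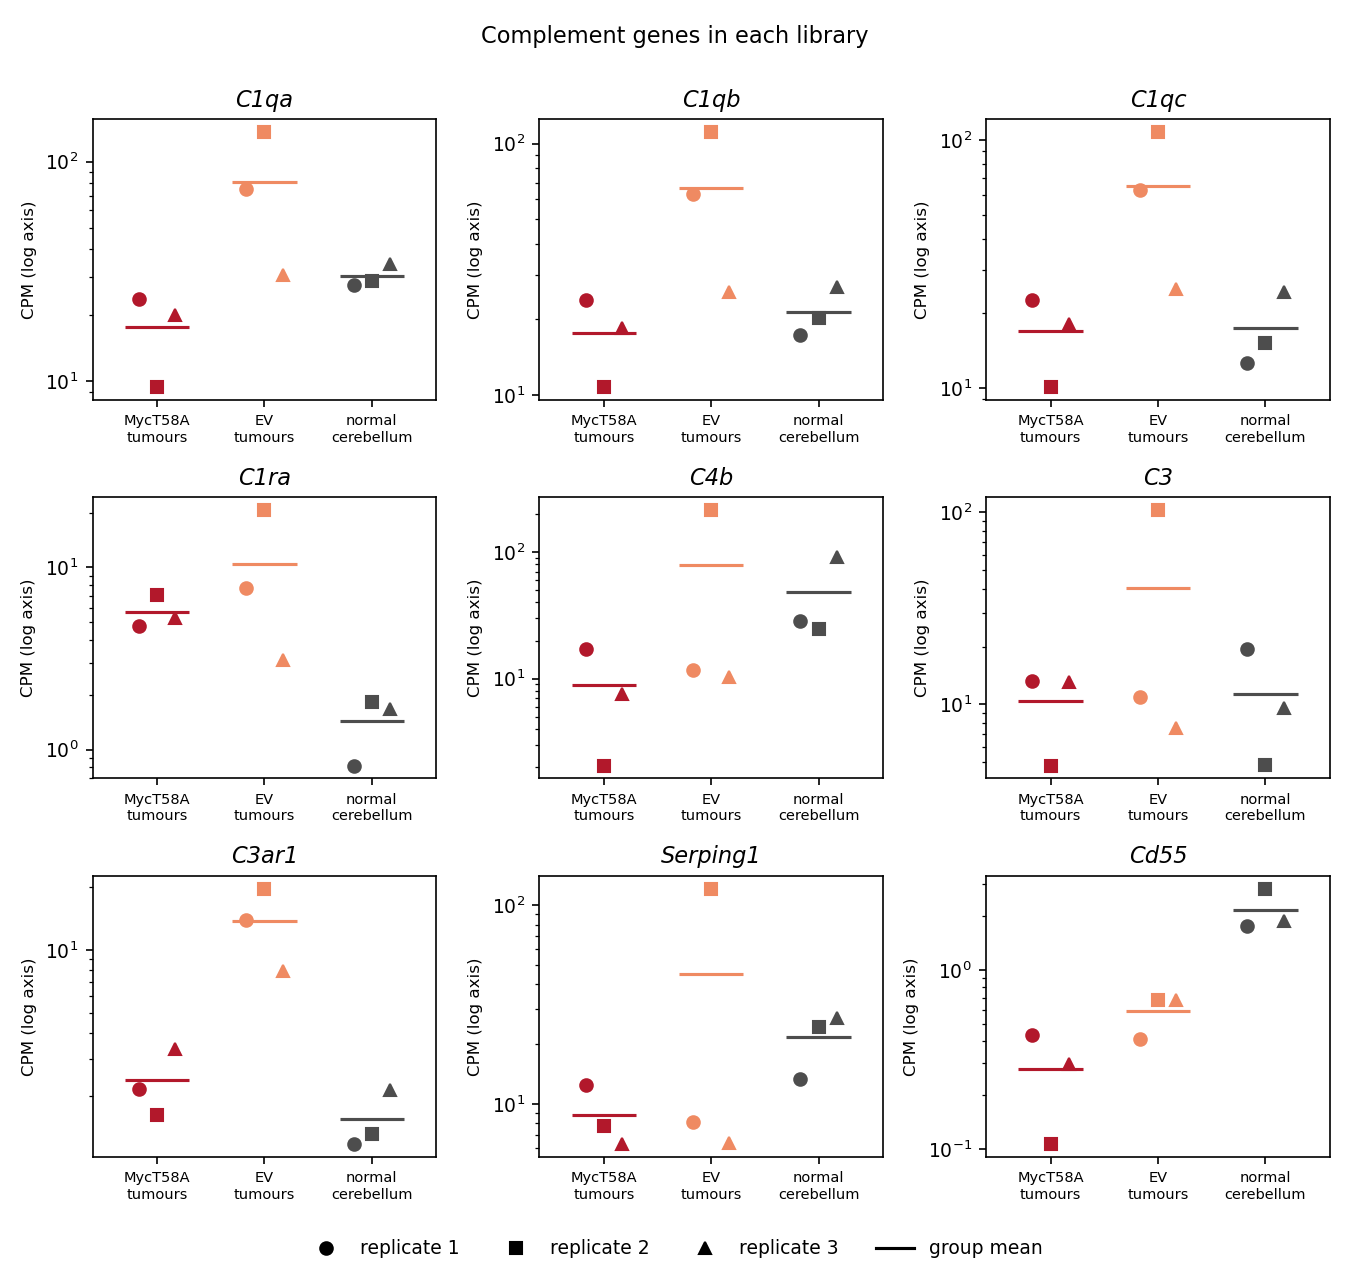
Level of each of the 9 complement genes in CPM, on log axes. Points are libraries, with circles, squares and triangles for replicates 1, 2 and 3, and bars are group means of 3 libraries. EV replicate 2 (square) is far above the other EV libraries in C4b, C3 and Serping1, while C3ar1 is higher in all 3 EV tumours than in any other library and Cd55 is lower in all 6 tumours than in cerebellum.

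Against EV tumours, C1qa fell 4.55-fold in MycT58A tumours (log2 fold change -2.19 ± 0.54 SE; 17.7 ± 7.40 against 80.7 ± 53.4 CPM, SD, n = 3 each; edgeR adjusted p = 0.0433). C1qb and C1qc did not pass, at 3.77-fold and 3.85-fold lower (edgeR adjusted p = 0.0547 and 0.0586), though their ranges did not overlap either. The C1qa call is thin. It ended without any 1 library other than the library labelled EV replicate 3 (edgeR adjusted p = 0.052 to 0.141), and without EV replicate 2 the fall was 2.98-fold. It also ended under limma-voom without and with a weight for each group (adjusted p = 0.0513 and 0.0812) and in an edgeR fit of only those groups (adjusted p = 0.119), so that it passed under 6 of 17 alternatives. Without the library labelled EV replicate 3 all 3 chains fell, C1qa 5.98-fold, C1qb 4.94-fold and C1qc 5.04-fold (edgeR adjusted p = 0.00506, 0.00628 and 0.0082).

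Against cerebellum, all 3 chains rose in EV tumours. C1qa rose 2.68-fold, C1qb 3.11-fold and C1qc 3.76-fold (edgeR adjusted p = 0.0441, 0.0238 and 0.0155). Without EV replicate 2 the folds were 1.76, 2.08 and 2.55, and only C1qc stayed past the threshold (edgeR adjusted p = 0.0391). The C1qa call also ended without EV replicate 1, any control or MycT58A replicate 1 or 3 (edgeR adjusted p = 0.0546 to 0.105), and the C1qb and C1qc calls without control replicate 1 or 2 (edgeR adjusted p = 0.0513 to 0.072). Under limma-voom C1qa did not pass without or with a weight for each group (adjusted p = 0.0774 and 0.0986), nor C1qb with it (adjusted p = 0.0514), and an edgeR fit of only those groups ended the C1qa call (adjusted p = 0.0589). In MycT58A tumours no chain passed against cerebellum: C1qa, C1qb and C1qc had log2 fold changes of -0.76 ± 0.52, -0.28 ± 0.50 and -0.03 ± 0.52 SE (edgeR adjusted p = 0.225, 0.649 and 0.959). Under limma-voom with a weight for each group C1qa fell there (adjusted p = 0.0215).

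The chains were not represented in the same ratio in tumours and cerebellum. With counts divided by exon length, C1qa made up 40.4%, 37.5% and 42.1% of C1q in MycT58A tumours, 44.3%, 45.4% and 44.5% in EV tumours and 54.0%, 51.0% and 46.9% in cerebellum. C1qc made up 20.8%, 21.6% and 20.6% in MycT58A tumours, 20.04%, 19.3% and 19.7% in EV tumours and 13.4%, 14.5% and 17.98% in cerebellum. The 3 groups did not overlap in either share, and C1qb was at 32.6% to 40.9% in every library. These shares are descriptions and were not tested. They rest on at least 266 counts per chain and library.

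**Figure D2:**
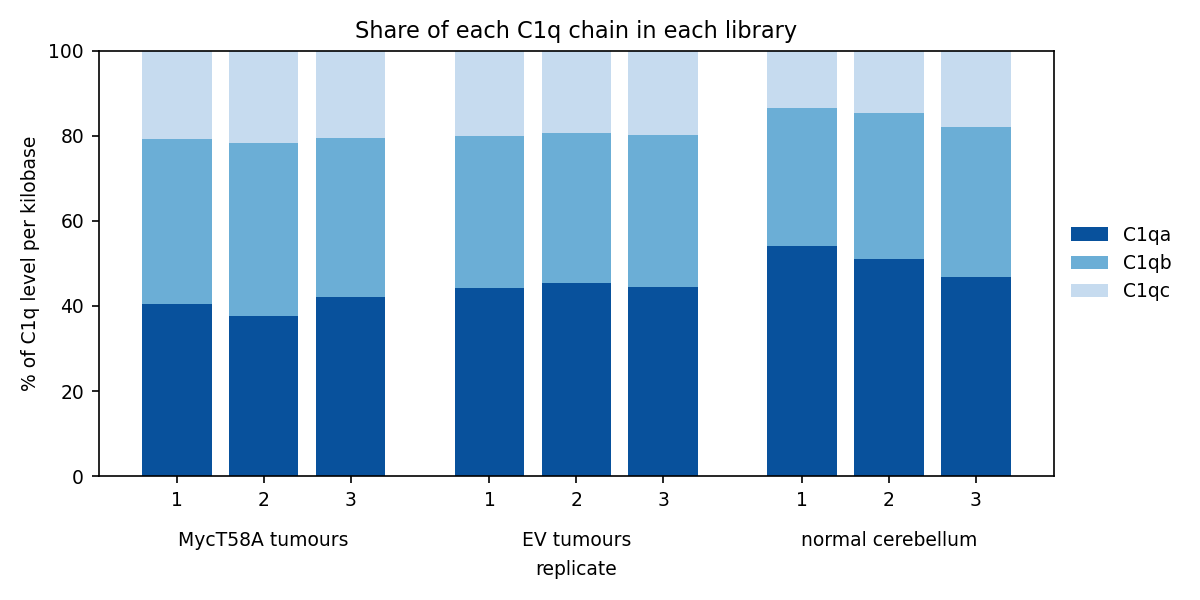
Share of each C1q chain in the summed C1q level of a library, in percent, with counts divided by exon length. Each bar is 1 library. The C1qa share is 37.5% to 42.1% in MycT58A tumours, 44.3% to 45.4% in EV tumours and 46.9% to 54.0% in cerebellum.

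The level of C1q was read beside markers of the cells that make it. In bulk tissue, fewer cells of a type and less RNA per cell cannot be told apart. The 18 microglia and macrophage markers summed to 288, 161 and 225 CPM in MycT58A tumours, to 587, 841 and 624 CPM in EV tumours and to 307, 371 and 367 CPM in cerebellum. Of the 18, 7 fell and 0 rose in MycT58A against EV tumours, 8 rose and 0 fell in EV tumours against cerebellum, and 2 rose and 6 fell in MycT58A tumours against cerebellum (edgeR, adjusted p under 0.05). Of all genes 5.02% fell in the first of these comparisons, 30.7% rose in the second, and 31.2% rose and 31% fell in the third. None of the 18 was at 0 in all libraries. C1q as a share of that sum was 24.4%, 18.8% and 25.1% in MycT58A tumours, 34.3%, 42.3% and 13.0% in EV tumours and 18.7%, 17.2% and 23.3% in cerebellum, so the groups overlapped.

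2 of the 18 markers did not follow the rest. Tmem119, a microglial membrane gene that is also active in bone-forming and mesenchymal cells, stood at 338 CPM in the library labelled EV replicate 3 and at 13.0 to 36.8 CPM in the other tumours. Sall1, a transcription factor of microglia and of many embryonic tissues, stood at 68.4, 58.0 and 84.5 CPM in MycT58A tumours, at 2.47, 49.4 and 50.6 CPM in EV tumours and at 5.74 to 7.97 CPM in cerebellum. Without this pair, which was left out after its values were seen, the sums were 193, 79.5 and 128 CPM in MycT58A tumours, 547, 756 and 236 CPM in EV tumours and 287, 350.5 and 348 CPM in cerebellum. C1q was then 36.4%, 38.1% and 44.3% of the sum in MycT58A tumours, 36.7%, 47.1% and 34.4% in EV tumours and 20.02%, 18.2% and 24.5% in cerebellum. On this reading the tumour groups overlapped and all 6 tumours lay above all 3 controls. The part of macrophage number in the C1q results was not tested.

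**Figure D3:**
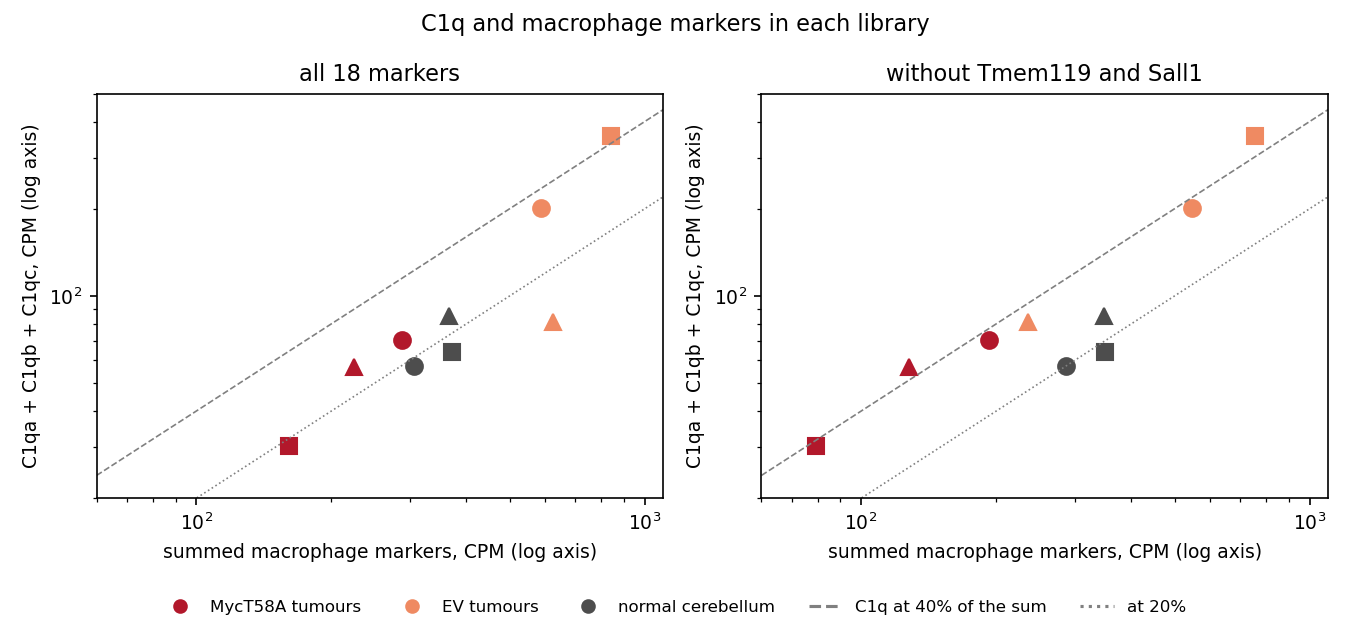
Summed level of C1qa, C1qb and C1qc against the summed level of macrophage markers, both in CPM on log axes, with all 18 markers (left) and without Tmem119 and Sall1 (right). Points are libraries, with circles, squares and triangles for replicates 1, 2 and 3, and the lines mark C1q at 20% and 40% of the sum. On the right the 6 tumours lie between 34.4% and 47.1% and the 3 controls between 18.2% and 24.5%.

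The genes whose profile over the 9 libraries lay closest to that of C1q were Mpeg1, Fcer1g and Adgre1, out of 11545 genes compared. Their root mean square distance from the mean C1q profile was 0.16, 0.16 and 0.24 log2 units, where that profile itself had a spread of 0.999. Mpeg1 encodes a pore-forming protein of macrophages, Fcer1g the common gamma chain of Fc receptors, and Adgre1 the macrophage surface protein F4/80. Mpeg1 stood at 31.1, 12.8 and 24.1 CPM in MycT58A tumours, at 76.4, 131 and 42.7 CPM in EV tumours and at 21.8, 31.1 and 34.6 CPM in cerebellum. Fcer1g and Adgre1 also stand among the 18 markers.

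C1ra, the mouse C1r protease gene (chromosome 6, 124512405 to 124523443), was higher in both tumour groups than in cerebellum. It stood at 4.79, 7.03 and 5.29 CPM in MycT58A tumours, at 7.74, 20.6 and 3.12 CPM in EV tumours and at 0.82, 1.82 and 1.68 CPM in cerebellum. All 6 tumours lay above all 3 controls, and the tumour groups overlapped. The near copy C1rb may share some of these reads. C1ra rose 7.29-fold in EV tumours (log2 fold change 2.86 ± 0.68 SE, edgeR adjusted p = 0.007). The rise in MycT58A tumours was 3.96-fold (log2 fold change 1.98 ± 0.66 SE, edgeR adjusted p = 0.0274). Without EV replicate 2 the EV rise was 3.81-fold (edgeR adjusted p = 0.0101). The MycT58A call ended without any 1 control or without MycT58A replicate 2 or 3 (edgeR adjusted p = 0.0514 to 0.0862). Between the tumour groups C1ra did not pass (log2 fold change -0.88 ± 0.63 SE, edgeR adjusted p = 0.367), and without EV replicate 2 its log2 fold change was 0.064.

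C3ar1, the receptor for C3a (chromosome 6, 122847138 to 122856161), separated the EV tumours from both other groups. It stood at 2.16, 1.63 and 3.37 CPM in MycT58A tumours, at 13.9, 19.6 and 7.94 CPM in EV tumours and at 1.19, 1.33 and 2.15 CPM in cerebellum. The lowest EV library was more than any MycT58A or control library. C3ar1 fell 5.78-fold in MycT58A against EV tumours (log2 fold change -2.53 ± 0.47 SE, edgeR adjusted p = 0.0223) and rose 8.87-fold in EV tumours against cerebellum (log2 fold change 3.15 ± 0.48 SE, edgeR adjusted p = 0.000807). MycT58A tumours did not differ from cerebellum past the threshold (1.53-fold, edgeR adjusted p = 0.262). The rise in EV tumours passed under all 17 alternatives run. The fall in MycT58A tumours ended without MycT58A replicate 1, 2 or 3 (edgeR adjusted p = 0.0993, 0.0919 and 0.0794) and in an edgeR fit of those groups alone (adjusted p = 0.072). It passed without EV replicate 2 (4.58-fold) and without the library labelled EV replicate 3 (7.02-fold). As a share of the sum of all 18 macrophage markers C3ar1 was 0.749%, 1.01% and 1.49% in MycT58A tumours, 2.36%, 2.33% and 1.27% in EV tumours and 0.387%, 0.358% and 0.585% in cerebellum. All 6 tumours lay above the controls by this measure, also without Tmem119 and Sall1 (1.12% to 3.36% against 0.379% to 0.616%).

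C4b, C3 and Serping1 shared another pattern, in which EV replicate 2 alone was high. C4b, a C4 gene of the major histocompatibility region (chromosome 17, 34728380 to 34743882), stood at 17.1, 2.06 and 7.502 CPM in MycT58A tumours, at 11.7, 214 and 10.3 CPM in EV tumours and at 28.8, 24.6 and 91.4 CPM in cerebellum. C3 (chromosome 17, 57203970 to 57228136) stood at 13.2, 4.79 and 13.1 CPM in MycT58A tumours, at 10.9, 103 and 7.54 CPM in EV tumours and at 19.5, 4.83 and 9.57 CPM in cerebellum. Serping1 (chromosome 2, 84765387 to 84775444) stood at 12.5, 7.81 and 6.31 CPM in MycT58A tumours, at 8.15, 121 and 6.35 CPM in EV tumours and at 13.4, 24.5 and 27.1 CPM in cerebellum. Apart from EV replicate 2, every tumour library lay below every control in C4b and in Serping1. In C3 the other 5 tumours spanned 4.79 to 13.2 CPM, inside the control range but for its lower end.

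None of the 3 passed in any comparison in the edgeR fit of all libraries. Against cerebellum their folds in EV tumours were 1.63 for C4b, 3.58 for C3 and 2.09 for Serping1 (edgeR adjusted p = 0.636, 0.143 and 0.383), on SEs of 1.21, 0.997 and 0.997 log2 units. Without EV replicate 2, Serping1 fell 2.97-fold in EV tumours (edgeR adjusted p = 0.0114), C4b stood 4.37-fold lower (edgeR adjusted p = 0.0701) and C3 1.21-fold lower (edgeR adjusted p = 0.71). That fit also took Serping1 and C4b past the threshold in MycT58A tumours against cerebellum, at 2.43-fold and 5.40-fold lower (edgeR adjusted p = 0.0128 and 0.0243), where with all libraries the folds were 2.44 and 5.43 (edgeR adjusted p = 0.289 and 0.124). Serping1 and C4b passed there also in an edgeR fit of only those groups (adjusted p = 0.00886 and 0.0211) and under limma-voom with a weight for each group (adjusted p = 0.023 and 0.0134). The fold of C4b there was 2.99 without control replicate 3 and 10.0 without MycT58A replicate 1. In MycT58A against EV tumours C4b, C3 and Serping1 were 8.85-, 3.90- and 5.09-fold lower with all libraries (edgeR adjusted p = 0.144, 0.215 and 0.163). Without EV replicate 2, C4b stood 1.24-fold lower, C3 1.12-fold higher and Serping1 1.22-fold higher (edgeR adjusted p = 0.827, 0.881 and 0.643). C4b has the near-identical copy C4a, and reads of the pair may have been split by the counting.

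Markers of other cells were read beside this pattern. Choroid plexus genes summed to 259, 345 and 550.1 CPM in MycT58A tumours, to 24.3, 573 and 15.9 CPM in EV tumours and to 11.9, 39.1 and 69.8 CPM in cerebellum. Endothelial genes summed to 95.2, 122 and 72.4 CPM in MycT58A tumours, to 75.2, 367 and 155 CPM in EV tumours and to 261, 239 and 239 CPM in cerebellum. In both sums EV replicate 2 was the highest of the 9 libraries. The 12 fibroblast and pericyte genes summed to 1917, 2247 and 2132 CPM in MycT58A tumours, to 3459, 14753 and 8711 CPM in EV tumours and to 301, 379 and 392 CPM in cerebellum, with 8 rising and 0 falling in EV tumours against cerebellum and 4 rising and 1 falling in MycT58A tumours. Of all genes 30.7% rose in EV and 31.2% in MycT58A tumours, so 4 of 12 is near that share. The 16 interferon response genes summed to 80.0, 63.6 and 74.9 CPM in MycT58A tumours, to 113, 513 and 133 CPM in EV tumours and to 134, 122 and 178 CPM in cerebellum. The 10 astrocyte genes summed to 677, 307 and 585 CPM in MycT58A tumours, to 781, 1590 and 696 CPM in EV tumours and to 6387, 8739 and 11649 CPM in cerebellum. EV replicate 2 was the highest tumour in these 3 sums as well. The fibroblast sum was also high in the library labelled EV replicate 3. That library, not EV replicate 2, was highest for keratinocyte genes (19.8, 53.2 and 187 CPM in EV tumours). It was also highest for neutrophil genes (4.25, 8.83 and 21.1 CPM in EV tumours). Lymphocyte genes were highest in EV replicate 2 (0.788, 8.32 and 1.36 CPM in EV tumours). The part of these cells and of the interferon genes in the levels of C4b, C3 and Serping1 was not tested. The liver is the usual source of plasma complement, and 5 of 6 hepatocyte genes (Alb, Apoa1, Serpina1a, Fga and Fgb) were at 0 to 0.487 CPM in all 9 libraries. The sixth, Ttr, which the choroid plexus also expresses strongly, stood at 0.72, 0.639 and 241 CPM in MycT58A tumours, at 0, 40.8 and 0.0567 CPM in EV tumours and at 3.15, 7.98 and 14.6 CPM in cerebellum. Ttr is also in the choroid plexus sum. The sums of 259 and 345 CPM in MycT58A replicates 1 and 2 thus came almost wholly from the rest of that list. Of its 5 tested genes, 1 rose and 0 fell in MycT58A against EV tumours, where 3.28% of all genes rose. Against cerebellum also 1 of the 5 rose and 0 fell in MycT58A tumours, where 31.2% of all genes rose. Whether these tumours held choroid plexus was not tested.

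By profile, the genes closest to C4b were the guanylate-binding proteins Gbp2 and Gbp3 and the cytokine Il34 (0.68, 0.78 and 0.79 log2 units). Gbp2 and Gbp3 also stand among the interferon response genes summed above. Genes named here were picked for their profile. Their own high level in EV replicate 2 is thus not a separate result. Gbp2 stood at 4.35, 2.27 and 2.17 CPM in MycT58A tumours, at 6.27, 55.5 and 3.97 CPM in EV tumours and at 9.85, 8.73 and 18.6 CPM in cerebellum. The genes closest to Serping1 were Lnx1, the peptide transporter Tap2 and the ceramide synthase Cers4 (0.37, 0.40 and 0.41 log2 units). Those closest to C3 were Osmr, the oncostatin M receptor, H2-Q4 and Apbb1ip, at the larger distances of 0.61, 0.61 and 0.66 log2 units. Tap2, like C4b and H2-Q4, is a gene of the major histocompatibility region, and H2 genes are so alike that counts of any 1 of them are uncertain.

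Cd55, which protects cells from complement (chromosome 1, 130439027 to 130462744), fell in both tumour groups. It stood at 0.43, 0.11 and 0.30 CPM in MycT58A tumours, at 0.41, 0.68 and 0.68 CPM in EV tumours and at 1.76, 2.84 and 1.87 CPM in cerebellum. All 6 tumours lay below all 3 controls. These levels rest on 12, 3 and 7 counts in MycT58A tumours, on 12, 16 and 12 in EV tumours and on 43, 64 and 40 in cerebellum, so counting error is a large part of each value. Cd55 fell 7.61-fold in MycT58A tumours (log2 fold change -2.93 ± 0.57 SE, edgeR adjusted p = 0.00231) and 3.64-fold in EV tumours (log2 fold change -1.87 ± 0.55 SE, edgeR adjusted p = 0.018). The MycT58A fall passed under all 17 alternatives, and the EV fall ended without control replicate 2 (edgeR adjusted p = 0.0732) and under limma-voom when each group had its own weight (adjusted p = 0.182). The tumour groups did not differ past the threshold (log2 fold change -1.06 ± 0.56 SE, edgeR adjusted p = 0.231). The antisense gene Gm16083 overlaps the first bases of Cd55 (130462576 to 130557075), and strand is not given for the counts. The genes closest in profile were Pgm5, Sema4a and Ficd (0.36 to 0.37 log2 units). They were picked for a profile like that of Cd55, so their own fall in tumours is not a separate result.

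**Figure D4:**
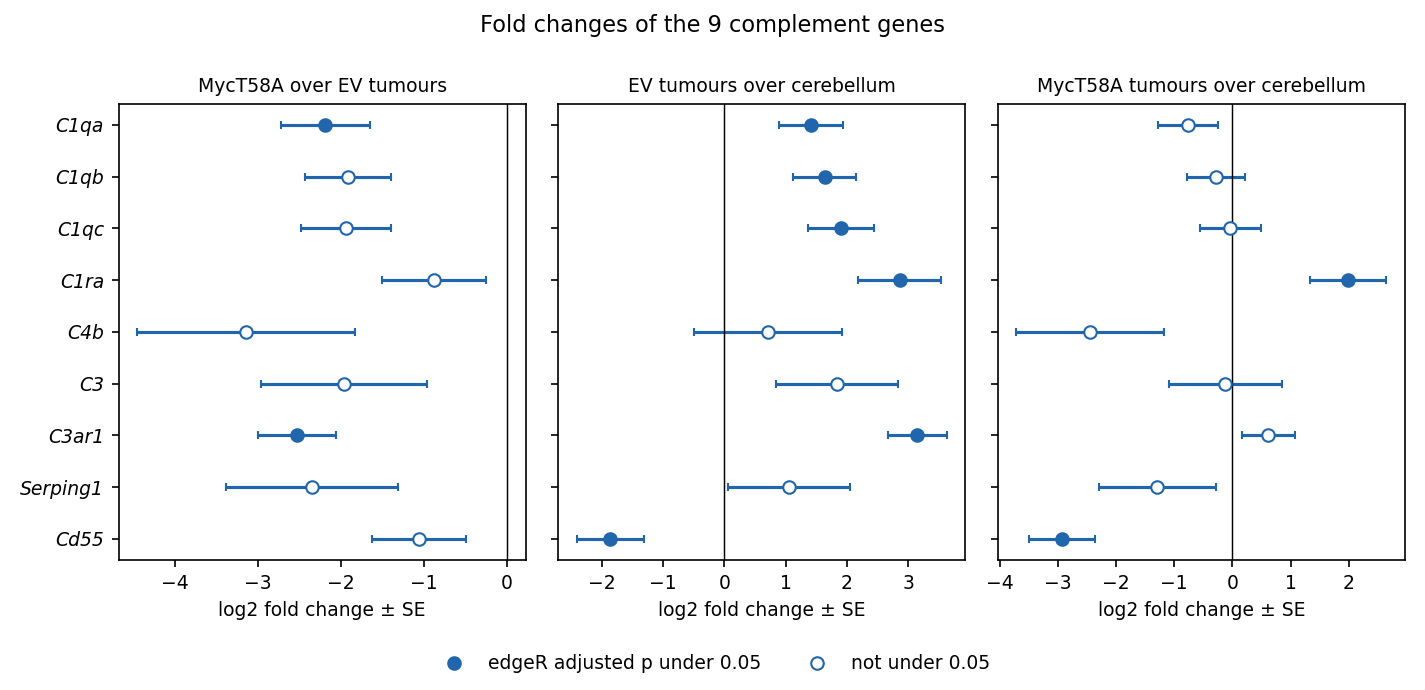
Log2 fold change of each of the 9 genes in the 3 comparisons, with the standard error, from edgeR fitted to all 9 libraries. Filled points have an adjusted p under 0.05. MycT58A tumours have 2 filled points against EV tumours (C1qa and C3ar1), EV tumours have 6 against cerebellum and MycT58A tumours have 2 against cerebellum (C1ra and Cd55).

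Levels per kilobase of exon put the C1q chains at the top in tumours. In MycT58A tumours C1qa and C1qb led at 17.03 ± 7.12 and 16.3 ± 6.05 CPM per kilobase, followed by C1qc at 8.79 ± 3.30 and Serping1 at 3.81 ± 1.39 (SD, n = 3). C3, C1ra and C4b came next at 2.01, 1.91 and 1.56 CPM per kilobase, within each other's spread, and C3ar1 and Cd55 were lowest at 0.554 and 0.0575. In EV tumours the order began with C1qa at 77.6 ± 51.3, C1qb at 61.4 ± 39.6 and C1qc at 33.8 ± 21.5 CPM per kilobase (SD, n = 3), and neighbours in it did not differ beyond their spread, except Cd55, which was lowest at 0.122 ± 0.0320. In cerebellum C1qa at 28.9 ± 3.55 and C1qb at 19.7 ± 4.48 CPM per kilobase led again, and Serping1, C1qc and C4b followed at 9.32, 9.001 and 8.47, within each other's spread. C3 stood at 2.19, and C1ra, Cd55 and C3ar1 at 0.482, 0.444 and 0.361 CPM per kilobase there.

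The rest of the complement system was read from a list of 49 other genes, of which 28 had enough counts to be tested. Among the 21 without enough counts were 5 of 9 genes listed under the lectin pathway and 6 of 7 terminal pathway genes. Fcnb, Mbl1, Mbl2, C8a and the Cd55 copy Cd55b had no count in any library. In MycT58A against EV tumours 0 of 28 passed edgeR, where 8.3% of all genes were called. Of the 28, 11 had an unadjusted p under 0.05, DESeq2 called 9 (all lower) and limma-voom called 0 with or without weights per group. The log2 fold change was negative in 25 of the 28, with a median of -1.50, beside -0.04 over all genes. No share over all genes is given for the unadjusted p, DESeq2, limma-voom, the sign or fits without 1 library. Those counts therefore have no background beside them. Without the library labelled EV replicate 3, 8 fell, C1s1, Cfp, C5ar1, Susd4 and Vtn among them, and C1qbp rose (edgeR adjusted p of those named 0.00983 to 0.0434). Without EV replicate 2, 0 fell and 2 rose, Vtn and Csmd1 (edgeR adjusted p = 0.0121 and 0.0391), and the median was -0.61. In EV tumours against cerebellum 7 rose and 3 fell, a smaller share than the 57% of all genes called there, and the median was 0.81, or 0.18 without EV replicate 2. In MycT58A tumours against cerebellum 4 rose and 6 fell, again a smaller share than the 62.2% of all genes, with a median of -0.88.

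Among the proteases, C1s1, the partner of C1r and the neighbour of C1ra on chromosome 6 (124530345 to 124542359), rose 42.5-fold in EV tumours against cerebellum (edgeR adjusted p = 0.00722). It stood at 1.76, 1.88 and 2.17 CPM in MycT58A tumours, at 6.10, 76.6 and 1.76 CPM in EV tumours and at 0.654, 0.665 and 0.653 CPM in cerebellum. All tumours lay above the controls, and without EV replicate 2 the EV rise was 6.01-fold (edgeR adjusted p = 0.00328). Under limma-voom it was 14.9-fold and did not pass (adjusted p = 0.0636). In MycT58A tumours the fold of 2.93 did not pass (edgeR adjusted p = 0.262), but it passed without EV replicate 2 (edgeR adjusted p = 0.0205), in an edgeR fit of only those groups (adjusted p = 0.00134) and under limma-voom with a weight for each group (adjusted p = 0.0473). Properdin (Cfp), which stabilises the alternative pathway enzyme, rose 5.35-fold in EV tumours against cerebellum (edgeR adjusted p = 0.0136), and 3.16-fold without EV replicate 2 (edgeR adjusted p = 0.0312). Masp1 and Colec12, placed under the lectin pathway in the list used here, passed in no comparison in the edgeR fit of all libraries. Without EV replicate 1 both fell in MycT58A against EV tumours (edgeR adjusted p = 0.032 and 0.0139) and both rose in EV tumours against cerebellum (edgeR adjusted p = 0.0419 and 0.0157). DESeq2 also called both lower in MycT58A against EV tumours (adjusted p = 0.0258 and 0.023). In MycT58A tumours against cerebellum both fell in an edgeR fit of only those groups (adjusted p = 0.0487 and 0.00964) and under limma-voom with a weight for each group (adjusted p = 0.0367 and 0.0223).

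Of 8 other receptors 5 were tested. In EV tumours against cerebellum 3 of these 5 rose (C5ar1, Itgax and Cd93), where 30.7% of all genes rose. Itgam and Itgb2, the chains of complement receptor 3, did not pass there, at 1.34-fold and 2.14-fold (edgeR adjusted p = 0.521 and 0.0702). Cr2, untested for low counts, had 0, 1 and 1 counts in EV tumours and 9, 5 and 9 in cerebellum. C5ar1, the receptor for C5a, stood at 0.90, 0.67 and 1.15 CPM in MycT58A tumours, at 3.08, 6.88 and 1.70 CPM in EV tumours and at 0.12, 0.27 and 0.28 CPM in cerebellum. It rose 17.2-fold in EV tumours (10.7-fold without EV replicate 2) and 4.02-fold in MycT58A tumours against cerebellum (edgeR adjusted p = 0.00108 and 0.0222). The cerebellum levels rest on 3, 6 and 6 counts, so the size of these folds is uncertain. The MycT58A call ended without control replicate 1 or MycT58A replicate 3. The integrin chain Itgax rose 5.50-fold in EV tumours (edgeR adjusted p = 0.0187), a call that ended without control replicate 1 or 2 (edgeR adjusted p = 0.0663 and 0.0624), and the fold was 9.93 without control replicate 3. Cd93, a surface protein of endothelium and myeloid cells, rose 4.22-fold in EV and 2.58-fold in MycT58A tumours against cerebellum (edgeR adjusted p = 0.00401 and 0.0216), and its MycT58A call ended without control replicate 1 or 2 or MycT58A replicate 2.

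The regulators split. Cr1l, the mouse regulator Crry, stood at 48.1, 53.9 and 39.8 CPM in MycT58A tumours, at 31.9, 33.5 and 46.0 CPM in EV tumours and at 19.6, 19.8 and 20.3 CPM in cerebellum, a 2.38-fold rise in MycT58A and a 1.86-fold rise in EV tumours (edgeR adjusted p = 0.0011 and 0.00661). C1qbp, a mitochondrial protein first found as a binder of C1q, stood at 416, 403 and 394 CPM in MycT58A tumours, at 158, 66.9 and 347 CPM in EV tumours and at 49.7, 42.7 and 47.5 CPM in cerebellum. It rose 8.67-fold in MycT58A and 4.08-fold in EV tumours against cerebellum (edgeR adjusted p = 0.000975 and 0.008). Without the library labelled EV replicate 3, C1qbp also rose 3.57-fold in MycT58A against EV tumours (edgeR adjusted p = 0.0108), where with all libraries the fold was 2.12 (edgeR adjusted p = 0.164), and its rise in EV tumours against cerebellum was 2.46-fold.

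Other regulators were lower in MycT58A tumours than in cerebellum, some of them in EV tumours too. Susd4, a membrane regulator with sushi domains, fell 31.4-fold in MycT58A and 17.1-fold in EV tumours (edgeR adjusted p = 0.000104 and 0.000246), at 1.07 to 2.34 CPM in MycT58A tumours, 1.53 to 5.38 CPM in EV tumours and 58.2 to 59.6 CPM in cerebellum. Csmd2 fell 56.8-fold and 37.1-fold and Csmd3 41.6-fold and 22.2-fold in MycT58A and EV tumours (edgeR adjusted p = 0.000135 to 0.00315). Csmd2 had only 12, 2 and 4 counts in MycT58A tumours and 7, 11 and 6 in EV tumours. Csmd3 had 6, 0 and 3 counts in MycT58A tumours and 7, 8 and 1 in EV tumours, so the size of these folds is uncertain. Without MycT58A replicate 1 the MycT58A folds were 105 for Csmd2 and 74.7 for Csmd3, and without MycT58A replicate 2 that of Csmd3 was 27.6. Clusterin (Clu), a secreted chaperone that blocks the membrane attack complex, stood at 58.6, 3.69 and 43.7 CPM in MycT58A tumours, at 31.8, 1576 and 390 CPM in EV tumours and at 922, 752 and 833 CPM in cerebellum. It fell 23.7-fold in MycT58A tumours against cerebellum (edgeR adjusted p = 0.0177), a call that ended without MycT58A replicate 3. Csmd1 and Cd59b also fell there (edgeR adjusted p = 0.0438 and 0.0467), and both calls ended without any 1 control or MycT58A library, that of Cd59b also with no low-count filter (edgeR adjusted p = 0.0792). Csmd1 stood at 0.0342, 10.2 and 0.113 CPM in EV tumours, so that EV replicate 2 alone was near the controls. Cd59b rested on 10, 17 and 7 counts in MycT58A tumours and 33, 32 and 29 in cerebellum. The related Cd59a stood at 8.45, 17.9 and 6.78 CPM in MycT58A tumours and at 29.0, 27.1 and 26.4 CPM in cerebellum. Cd59a was 2.49-fold lower there and did not pass (edgeR adjusted p = 0.073), though it passed under 7 of 17 alternatives. Granule neuron and astrocyte sums fell with these genes, as given above, and their part was not tested.

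Vtn, which encodes vitronectin, an inhibitor of the membrane attack complex that vessel cells also make, differed most between EV libraries among the complement genes named. It stood at 19.8, 11.9 and 7.76 CPM in MycT58A tumours, at 2.02, 2241 and 2.89 CPM in EV tumours and at 105, 128 and 82.2 CPM in cerebellum. Vtn passed in no comparison in the edgeR fit of all libraries. Without EV replicate 2 it fell 42.8-fold in EV tumours against cerebellum, fell 7.93-fold in MycT58A tumours against cerebellum and rose 5.40-fold in MycT58A against EV tumours (edgeR adjusted p = 6.43e-05, 0.000198 and 0.0121). Its fall in MycT58A tumours against cerebellum passed also in an edgeR fit of only those groups (adjusted p = 9.97e-05) and under limma-voom with a weight for each group (adjusted p = 0.00253).

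**Figure D5:**
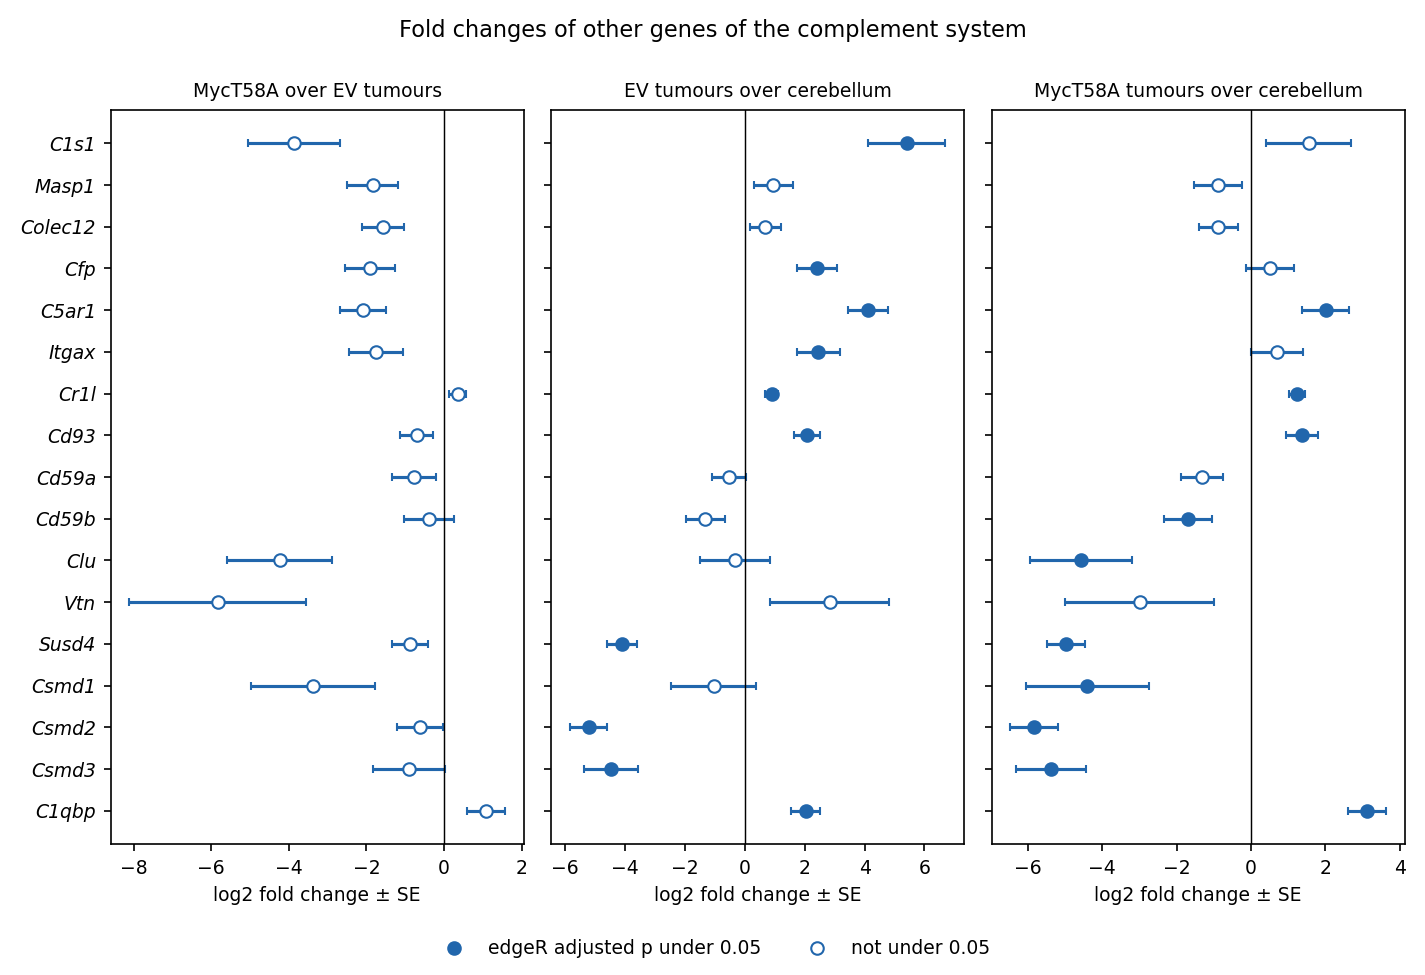
Log2 fold change of 17 other complement genes in the 3 comparisons, with the standard error, from edgeR fitted to all 9 libraries. Genes shown passed in at least 1 comparison or reached 20 CPM in a group. Filled points have an adjusted p under 0.05: none in MycT58A against EV tumours, 10 in EV tumours against cerebellum and 10 in MycT58A tumours against cerebellum.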

How the data were processed

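RNA of 9 mouse libraries, 3 in each of 3 groups, was sequenced. The authors deposited a table of raw counts per gene symbol, and the submitters' processing notes name bcl2fastq, TopHat, edgeR and mm10. For the read counter, its annotation and strand, the tool or setting is not given in the sources used here. Groups came from the labels' genotype and tissue. The 9 genes and all gene lists were chosen with earlier results of these data known.

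Genes were kept by edgeR's filterByExpr (at least 10 counts in a library of median size in 3 libraries, 15 in all), which left 15171 of 24444 symbols. All groups entered 1 edgeR quasi-likelihood fit (edgeR 4.0.16, R 4.3.3) with TMM scaling and Benjamini-Hochberg adjustment across every gene kept (threshold 0.05). Each SE is the log2 fold change divided by the square root of the fit's F statistic. With 6 residual degrees of freedom and 3 libraries a group, precision is limited by the spread between libraries more than by depth. No 2 libraries of the same group agreed within sampling noise. Profile likeness is the root mean square difference of centred log2 CPM, over genes of at least 5 mean CPM. Per-kilobase levels use GENCODE vM21 exons. Alternatives were RLE scaling, library size alone, other filters, DESeq2 1.42.0, limma-voom (limma 3.58.1) with and without weights per group, only the groups compared, and leaving out each library. DESeq2 left 12 values without an adjusted p, and these were not counted. Other complement genes were named if past the threshold in a comparison or at 20 CPM in a group. Of the genes this rule named, 1 is not reported here.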

Additional observations from a re-analysis of the deposited data

How the results depend on the processing

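Of 1310 values of single genes under alternatives, 1176 kept their direction and side of the threshold, 60 lost the call, 52 gained one and 22 changed sign, and a further 12 had no adjusted p from DESeq2. Of the 9 genes, 2 changed in MycT58A against EV tumours; DESeq2 gave 4, limma-voom 1 with or without weights per group, only those groups 0, and leaving out 1 library 0 to 4. The 6 in EV tumours against cerebellum became 3 with weights and 2 to 6 without 1 library. The 2 in MycT58A tumours against cerebellum became 5 with weights, 4 with only those groups and 1 to 4 without 1 library. For the other complement genes, 0 in MycT58A against EV tumours became 9 with DESeq2 and 0 to 9 without 1 library, and 10 in MycT58A tumours against cerebellum became 20 with weights, 18 with only those groups and 6 to 14 without 1 library. Log2 fold changes that changed sign are given as their range over fits without 1 library. In MycT58A against EV tumours the ranges were -1.30 to 0.064 (C1ra), -2.45 to 0.16 (C3), -2.85 to 0.29 (Serping1), -0.78 to 0.65 (Cd59b), -6.41 to 2.43 (Vtn) and -3.95 to 2.22 (Csmd1), each highest without EV replicate 2. In EV tumours against cerebellum they were -2.13 to 1.56 (C4b), -0.28 to 2.48 (C3), -1.57 to 1.58 (Serping1), -5.42 to 3.42 (Vtn) and -1.98 to 0.23 (Clu), each lowest without EV replicate 2, and limma-voom gave C4b -0.40, Serping1 -0.12 and Vtn -2.11 with or without weights. In MycT58A tumours against cerebellum they were -0.29 to 0.30 (C1qc) and -0.48 to 0.53 (C3), and C1qc was 0.031 with no low-count filter. The cause was not tested. With library size alone the median of all genes was -0.17, 0.18 and -0.12 in the 3 comparisons, against -0.04, 0.14 and -0.02 with TMM; in MycT58A against EV tumours 498 genes were called higher and 761 lower with TMM, 427 and 802 with RLE scaling, and 301 and 938 with library size alone. No paired analysis was possible because the titles number each library once and replicate numbers were given in accession order. Of the 9 genes, depth limits Cd55 most, at 3 to 64 counts a library. Some of the other complement genes had fewer, such as Csmd3 at 0 to 8 counts in tumours.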
